A study of Mus musculus with 6 samples.

Results

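The genes described here are 10 markers of the segments of the brain vascular tree, 5 arterial (*Bmx*, *Gkn3*, *Mgp*, *Gja4* and *Gja5*), 2 capillary (*Car4* and *Alpl*) and 3 venous (*Nr2f2*, *Lcn2* and *Il1r1*). They were picked by symbol from the 23183 genes listed in each library, and all 10 were listed and had enough signal to be tested. RNA came from brain microvessels of C57BL/6 mice that carry a Cre recombinase under the control of Tek. The WT mice were TEK-Cre, *Crif1*+/+, and the TEKCRIF1 KO mice were TEK-Cre, *Crif1* flox/flox, so both groups carried the Cre. There were 3 WT and 3 KO mice with 1 library per mouse, and their ages and sexes were not given. Tek is active in endothelial cells and also in blood cell precursors, and the microvessels were enriched by dextran centrifugation and a cell strainer and not sorted, so each library mixed several cell types.

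Endothelial cells change gradually along the vessel, from arteriole through capillary to venule. Notch signaling with its ligand Dll4 and SoxF factors holds the arterial state, while Nr2f2 (COUP-TFII) holds the venous state by restraining Notch. In the brain, capillary cells carry most of the exchange of nutrients and gases across the blood-brain barrier, arterioles are wrapped in smooth muscle and set the flow, and venules are the main place where leukocytes enter in inflammation. In RNA from whole microvessels, fewer cells of a segment cannot be told apart from less RNA per cell.

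*Crif1*, listed as *Gadd45gip1*, had a mean level of 16.9 ± 1.76 in the WT and 9.57 ± 1.78 in the KO libraries (SD, n = 3 each, in FPKM), without overlap between the groups (exact permutation p = 0.1). FPKM counts fragments per length of transcript and per sequencing depth of the library. Depth, estimated from the spacing of low FPKM values, was between 6400000 and 11800000 fragments per library, and 3 fragments on 1 kb of transcript correspond to 0.254 to 0.465 FPKM, a limit that covers counting error only. Of 14247 genes tested with limma on log2(FPKM + 1), 0 (0%) passed at an adjusted p under 0.05, the lowest value being 0.841. An unadjusted p under 0.05 was found for 838, of which 395 (2.77%) had the higher and 443 (3.11%) the lower mean in KO mice. Relative to 12 pan-endothelial genes the split was 831 higher and 127 lower, without *Cdh5* among them 506 and 200, and after correction for GC content 369 and 275. The KO values lay wholly above the WT values for 765 genes (5.37%) and wholly below them for 812 (5.7%). The summed FPKM of 8 choroid plexus markers was 3259 to 3868 in WT mice, 9760 in KO 1, 3443 in KO 2 and 11711 in KO 3, and that of the 12 pan-endothelial genes was 901 to 1408 over all libraries. Markers of microglia and macrophages summed to 200 to 263 FPKM in the WT and 172 to 196 FPKM in the KO libraries, those of oligodendrocytes to 271 to 621 FPKM and those of erythroid cells to 1209 to 2425 FPKM.

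Of the 10 segment markers, none passed the adjusted or the unadjusted threshold. *Alpl*, which encodes tissue-nonspecific alkaline phosphatase on the surface of brain capillaries, was the 1 marker whose groups did not overlap, with KO values 22% under WT values on average. The other 9 overlapped. The median log2 fold change was 0.07 for the arterial genes, −0.24 for the capillary genes and −0.08 for the venous genes, beside −0.01 over all genes tested. Relative to the pan-endothelial genes these medians were 0.23, −0.08 and 0.08, beside 0.15 over all genes. In number, 3 of 5 arterial, 0 of 2 capillary and 1 of 3 venous genes had a positive log2 fold change.

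**Figure D1:**
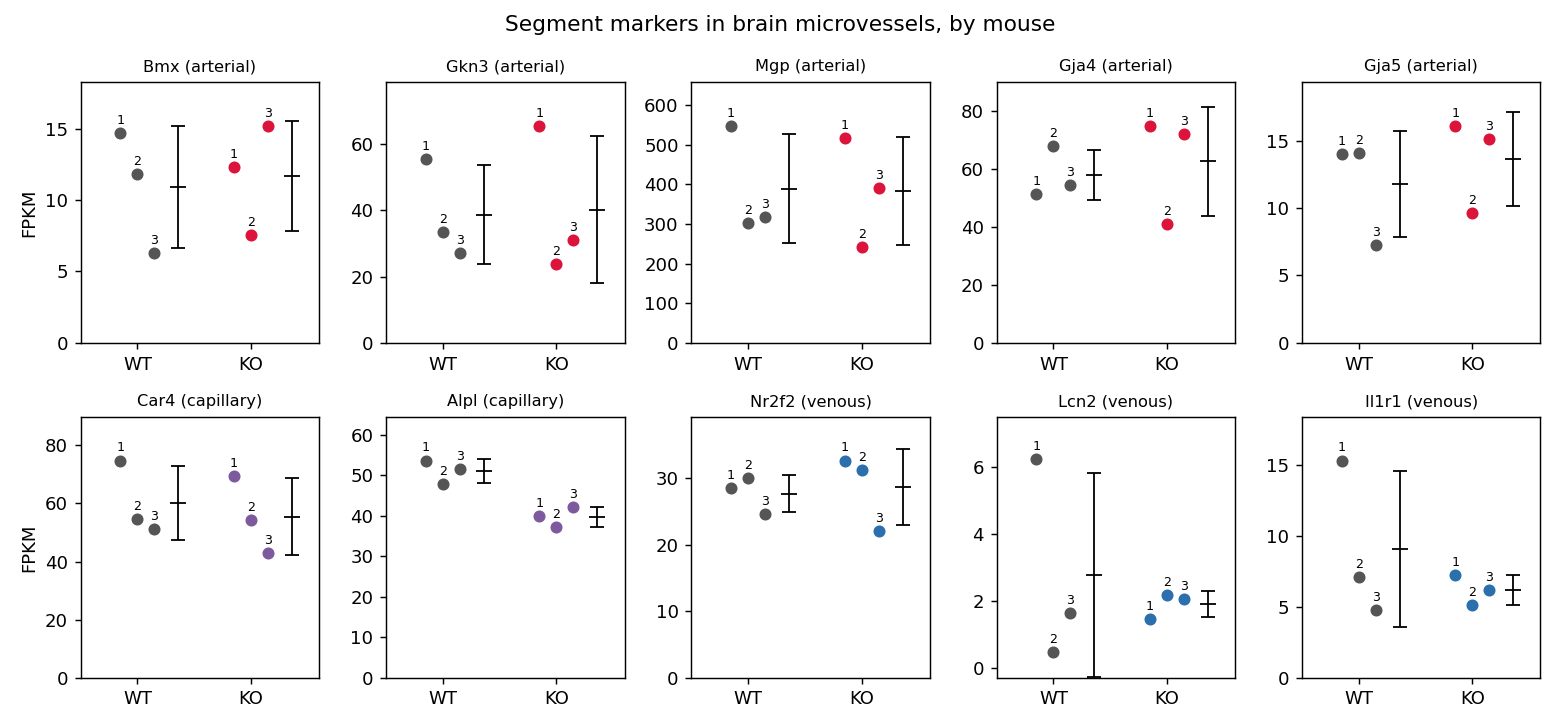
FPKM of the 10 segment markers in each of the 6 mice. Each point is 1 mouse with its replicate number, and the bar beside each group is the mean ± SD of 3 mice. *Alpl* is the gene whose WT points (47.8 to 53.6 FPKM) and KO points (37.1 to 42.1 FPKM) do not overlap.

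Promoter sequence is shown for *Alpl*, as the gene without overlap, and for *Gja4* and *Gja5*, the pair of arterial connexins, to show the letters directly before their annotated starts. RefSeq windows of GRCm38.p6 were found for 9 of the 10 genes, 11 windows in all because *Alpl* and *Il1r1* have 2 starts each. Both strands of the 250 bases before each start were searched for the GC box GGGCGG, the RBPJ core GTGGGAA, the TATA box TATAAA and the nuclear receptor half-site AGGTCA. The 150 bases nearest each start follow, 5′ to 3′ in the direction of transcription, with the matches in capitals. No GENCODE M21 exon overlaps them.
Alpl, upstream start, chr4:137796385-137796534, minus strand: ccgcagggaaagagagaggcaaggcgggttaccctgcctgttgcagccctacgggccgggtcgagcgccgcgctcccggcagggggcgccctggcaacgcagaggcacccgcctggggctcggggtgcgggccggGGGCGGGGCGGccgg
Alpl, downstream start, chr4:137766476-137766625, minus strand: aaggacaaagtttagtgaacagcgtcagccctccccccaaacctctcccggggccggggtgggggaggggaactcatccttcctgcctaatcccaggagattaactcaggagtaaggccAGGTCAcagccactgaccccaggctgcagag
Gja4, chr4:127314040-127314189, minus strand: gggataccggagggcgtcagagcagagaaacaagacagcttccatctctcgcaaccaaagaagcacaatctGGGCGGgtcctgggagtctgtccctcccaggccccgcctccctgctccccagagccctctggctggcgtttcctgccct
Gja5, chr3:97032252-97032401, plus strand: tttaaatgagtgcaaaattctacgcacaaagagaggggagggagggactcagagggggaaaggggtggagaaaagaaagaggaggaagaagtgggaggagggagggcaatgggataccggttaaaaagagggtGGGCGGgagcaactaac

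The upstream *Alpl* window held 2 GC boxes, whose first letters lie 15 and 10 bases before the start and which share 1 letter. The downstream *Alpl* window held no GC box but held the half-site at 31 bases before the start, and a TATA box on the other strand lay 192 bases before the start, beyond the stretch shown. In *Gja4* a GC box lay 79 bases and in *Gja5* 17 bases before the start. The RBPJ core, the letters read by the DNA-binding partner of Notch, was in none of the 11 windows, which cover 4 of the 5 arterial genes, since *Mgp* had no window. Among all 32851 windows, 32.7% held the GC box, 5.42% the RBPJ core, 12.4% the TATA box and 14% the half-site. FPKM values per gene do not tell which of the *Alpl* starts was used.

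The arterial genes were compared to ask whether the arterial end of the tree differed between KO and WT mice. No arterial gene passed the test, and their values moved more between mice of 1 genotype than between the genotypes. *Bmx*, a cytoplasmic kinase of the Tec family found in arterial endothelium (chromosome X, 164192842 to 164258193, minus strand), had 14.7 FPKM in WT 1, 11.8 in WT 2 and 6.31 in WT 3, beside 12.3 in KO 1, 7.54 in KO 2 and 15.2 in KO 3. The highest and the lowest value stood in different groups, KO 3 and WT 3, and the groups overlapped almost fully. The means were 10.9 ± 4.26 and 11.7 ± 3.85 FPKM (SD, n = 3 each), with a log2 fold change of 0.11 (SE 0.33, 95% interval −0.63 to 0.85; limma p = 0.756, exact permutation p = 0.7).

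*Gja4* and *Gja5* encode connexin 37 and connexin 40, which form the gap junctions that pass electrical signals along the arterial endothelium. *Gja4* (chromosome 4, 127311421 to 127314039, minus strand) had 51.4, 67.8 and 54.6 FPKM in the WT libraries and 74.9, 41 and 72.1 FPKM in the KO libraries, in replicate order. KO 1 and KO 3 lay above every WT mouse, and KO 2 lay below every WT mouse. Its means were 57.9 ± 8.71 and 62.7 ± 18.8 FPKM (SD, n = 3 each; log2 fold change 0.07, SE 0.26, 95% interval −0.50 to 0.65; limma p = 0.784, exact permutation p = 0.8). *Gja5* (chromosome 3, 96904693 to 97077416, plus strand) had 14, 14.1 and 7.28 FPKM in the WT libraries and 16.1, 9.64 and 15.1 FPKM in the KO libraries. Again KO 1 and KO 3 were the highest libraries, while here WT 3 was the lowest and lay under KO 2. The *Gja5* means were 11.8 ± 3.9 and 13.6 ± 3.47 FPKM (SD, n = 3 each), and its log2 fold change of 0.21 was the highest of the 10 markers (SE 0.30, 95% interval −0.44 to 0.87; limma p = 0.484, exact permutation p = 0.5). Without KO 2 the groups of *Gja4* and *Gja5* no longer overlapped, and their log2 fold changes were 0.35 and 0.43 (limma adjusted p = 0.444 and 0.567). Without KO 3 that of *Gja4* was −0.05, and without WT 3 that of *Gja5* was −0.07. Groups of 2 and 3 mice separate more easily than groups of 3, and the share over all genes was not taken. The fit without KO 2 had 1865 genes at an unadjusted p under 0.05, beside 838 with all libraries.

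*Mgp* and *Gkn3* showed another order of the libraries. *Mgp*, the matrix Gla protein that binds bone morphogenetic proteins and guards vessel walls from calcification (chromosome 6, 136872435 to 136875823, minus strand), had 548, 302 and 318 FPKM in the WT libraries and 516, 242 and 392 FPKM in the KO libraries. *Gkn3*, a gastrokine that marks brain arterial endothelium (chromosome 6, 87383256 to 87388935, minus strand), had 55.6, 33.5 and 27 FPKM in the WT libraries and 65.5, 23.9 and 31.1 FPKM in the KO libraries. In both genes WT 1 and KO 1 stood above the other 4 libraries, 1 from each genotype, and KO 2 was the lowest. The means of *Mgp* were 389 ± 138 and 384 ± 137 FPKM (SD, n = 3 each; log2 fold change −0.03, SE 0.34, 95% interval −0.79 to 0.73; limma p = 0.925, exact permutation p = 0.9). Those of *Gkn3* were 38.7 ± 15 and 40.2 ± 22.2 FPKM (SD, n = 3 each; log2 fold change −0.01, SE 0.37, 95% interval −0.84 to 0.82; limma p = 0.973, exact permutation p = 1). Leaving out KO 2 or WT 1 turned both differences positive, to 0.26 and 0.24 for *Mgp* and to 0.28 each for *Gkn3*.

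**Figure D2:**
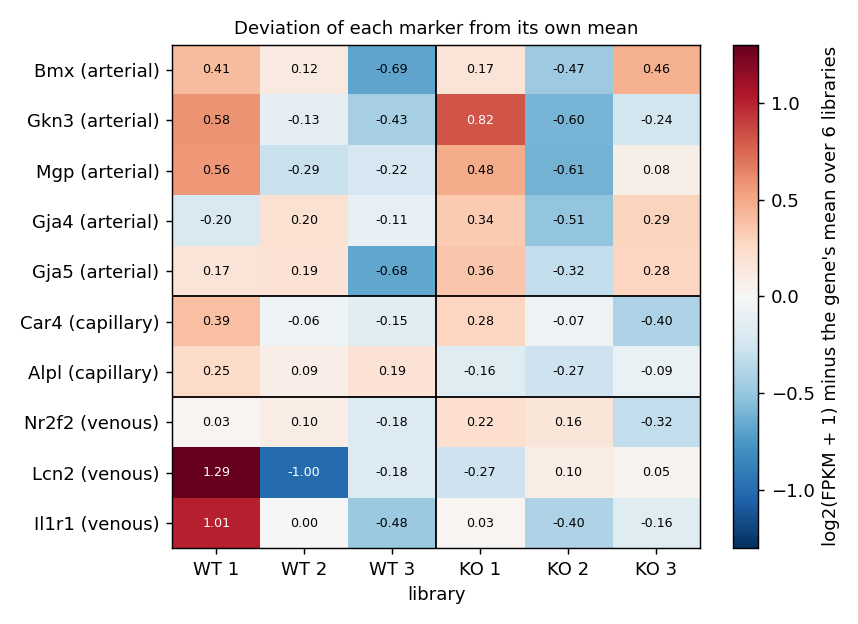
Deviation of each segment marker from its own mean over the 6 libraries, in log2(FPKM + 1), with red for values above and blue for values below the mean. The 5 arterial rows are all below 0 in WT 3 and KO 2 and all above 0 in KO 1, and the largest deviation is that of *Lcn2* in WT 1 (1.29).

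The arterial genes varied together from mouse to mouse, across the genotypes. All 5 lay below their own mean over the 6 libraries in WT 3 and in KO 2, and all 5 lay above it in KO 1. In WT 1 and in KO 3, 4 of the 5 lay above it. The mean log2(FPKM + 1) of the 5 genes was 5.70, 5.41 and 4.97 in WT mice and 5.83, 4.89 and 5.57 in KO mice, with a mean of 5.36 ± 0.37 and 5.43 ± 0.48 (SD, n = 3 each). The range within either group was wider than the difference between the groups, 0.07. The median deviation of all genes tested lay between −0.02 and 0.01 in every library. Over the 6 libraries the 10 arterial pairs had a median correlation of 0.64 (0.45 to 0.93). The 31 pairs between segments had a median of 0.27 (−0.45 to 0.80). Some of these pairs lay above the arterial median, such as *Gkn3* with *Car4* (0.80) and *Mgp* with *Il1r1* (0.74), so shared variation was not limited to the arterial genes.

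Arterioles carry smooth muscle, and the summed FPKM of 8 contractile smooth muscle markers was 908, 428 and 439 in WT mice and 1118, 441 and 623 in KO mice. *Acta2*, smooth muscle actin, had 252, 107 and 115 FPKM in the WT libraries and 345, 108 and 181 FPKM in the KO libraries. The highest sums were thus in KO 1 and WT 1, the libraries highest for *Mgp* and *Gkn3*, and no smooth muscle marker was at 0. Of the 8 markers 6 had a positive log2 fold change, with a median of 0.31, and 0 had an unadjusted p under 0.05. *Bmx*, *Gja4*, *Gja5* and *Mgp* were above their means in both KO 1 and KO 3, the libraries with the high choroid plexus sums, and *Bmx* and *Gja5* were also above them in WT 1 and WT 2. The summed FPKM of 8 neuronal markers was highest in WT 3 (517) and KO 2 (436), where all 5 arterial genes were below their means, and was 192 to 398 in the other libraries. KO 2, with the lowest depth, had the lowest sum of the 5 arterial genes (325 FPKM) and of the pan-endothelial genes (901 FPKM). The part of smooth muscle, choroid plexus, neurons and depth in the arterial values was not tested.

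**Figure D3:**
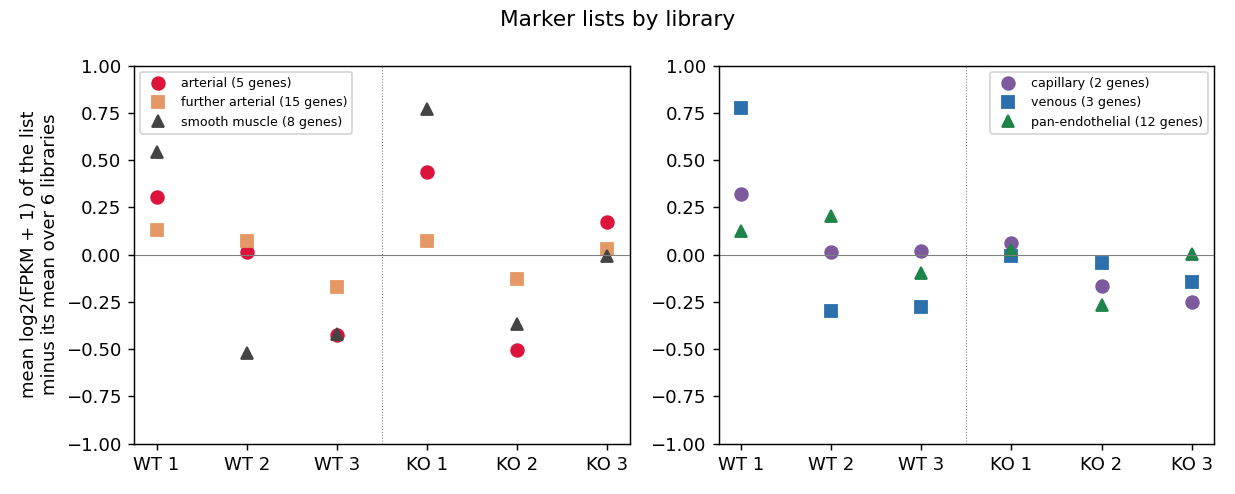
Mean log2(FPKM + 1) of 6 marker lists in each library, minus the mean of that list over the 6 libraries. In the left panel the arterial genes stand highest in KO 1 and lowest in KO 2, and smooth muscle genes stand highest in KO 1 and WT 1. In the right panel the venous list stands at 0.78 in WT 1 and at or below 0 in the other libraries.

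A longer list of 15 further arterial genes, among them Notch and SoxF genes, had 0 genes at an unadjusted p under 0.05 in either direction and 0 without overlap. Its median log2 fold change was −0.07, with 6 positive and 9 negative values. Its most abundant genes were *Clu*, the extracellular chaperone clusterin, with 292, 223 and 203 FPKM in the WT libraries and 262, 170 and 276 FPKM in the KO libraries, and *Tm4sf1*, a tetraspanin-like membrane protein, with 142, 112 and 110 FPKM and 152, 99.6 and 132 FPKM. KO 2 was the lowest library for both, as it was for *Gkn3*, *Mgp* and *Gja4*.

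The 4 vascular connexins put *Gja4* and *Gja5* beside their relatives. *Gja1*, connexin 43, which astrocytes also make in quantity, had 262, 281 and 258 FPKM in the WT libraries and 184, 205 and 180 FPKM in the KO libraries. Its groups did not overlap, and it was lower in KO mice by an unadjusted test (log2 fold change −0.50, SE 0.20; limma p = 0.0338, adjusted p = 0.841; exact permutation p = 0.1). The summed FPKM of 8 astrocyte markers was 620, 435 and 509 in WT mice and 386, 381 and 408 in KO mice, also without overlap, and 7 of the 8 had a negative log2 fold change with a median of −0.27. Its part in the *Gja1* values was not tested. *Gjc1*, connexin 45, had 25.4, 31.8 and 27.8 FPKM in the WT libraries and 38, 17.7 and 30.3 FPKM in the KO libraries, with KO 2 lowest and KO 1 highest as in *Gja4*.

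*Tec*, a kinase related to *Bmx*, had 4.89, 7.48 and 2.64 FPKM in the WT libraries and 5.11, 4.04 and 5.61 FPKM in the KO libraries. In a list of 12 genes, *Mgp* and genes of bone morphogenetic protein signaling, 0 had an unadjusted p under 0.05 and 0 lacked overlap, with a median log2 fold change of −0.09. *Id3*, a target gene of that pathway and the most abundant of them after *Mgp*, had 140, 113 and 115 FPKM in the WT libraries and 146, 93.7 and 117 FPKM in the KO libraries.

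The capillary genes were compared to ask the same of the exchange segment. *Alpl* (chromosome 4, 137741733 to 137796384, minus strand) had 53.6 FPKM in WT 1, 47.8 in WT 2 and 51.4 in WT 3, beside 40 in KO 1, 37.1 in KO 2 and 42.1 in KO 3. Every KO mouse lay below every WT mouse, and the spread within a group was small. The means were 50.9 ± 2.89 and 39.7 ± 2.51 FPKM (SD, n = 3 each). The log2 fold change was −0.35 (SE 0.18, 95% interval −0.75 to 0.05; limma p = 0.0795, adjusted p = 0.841), and the exact two-sided permutation p was 0.1, the smallest that 3 mice against 3 can give. Wholly lower KO values were found for 5.7% of all genes tested, so 1 gene of 10 is near that background. The summed astrocyte markers (381 to 408 FPKM, beside 435 to 620 in WT mice) and the summed markers of microglia and macrophages (172 to 196 FPKM, beside 200 to 263) were also wholly lower in KO mice. The pan-endothelial sums overlapped (901 to 1208 FPKM, beside 1046 to 1408), with 8 of the 12 log2 fold changes negative and a median of −0.13. Fibroblast markers (8 of 8 negative, median log2 fold change −0.36) and pericyte markers (7 of 8 negative, median −0.28) had sums that overlapped between the groups. The same held for markers of oligodendrocytes (7 of 8 negative, median −0.44) and neurons (7 of 8 negative, median −0.24). Markers of smooth muscle (6 of 8 positive, median 0.31) and choroid plexus (8 of 8 positive, median 0.97) went the other way. The part of these cells in the *Alpl* values was not tested.

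The size of the *Alpl* difference depended on the scale. After correction of each library for GC content it was −0.22 (limma adjusted p = 0.996), and relative to the 12 pan-endothelial genes it was −0.20 (limma adjusted p = 0.868). On that relative scale *Alpl* stood at −0.30, −0.54 and −0.14 in WT mice and −0.62, −0.43 and −0.53 in KO mice, and the groups overlapped through WT 2. In that list *Cdh5*, the endothelial cadherin, had the smallest p, with 86.7, 92.4 and 91.3 FPKM in the WT libraries and 50.8, 42.5 and 38.1 FPKM in the KO libraries (log2 fold change −1.03, SE 0.19; limma p = 3.03e-04, adjusted p = 0.841; exact permutation p = 0.1). Leaving *Cdh5* out of the reference gave −0.28 (limma adjusted p = 0.99), again with overlap. In each of the 6 fits without 1 library the difference stayed negative, between −0.40 and −0.30. The GC content of the longest transcript was 56.5% for *Alpl*, 58.8% for *Gja4* and between 43.8% (*Bmx*) and 54.4% (*Lcn2*) for the other 8 markers. With that correction the log2 fold change of *Gja4* moved from 0.07 to 0.25.

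**Figure D4:**
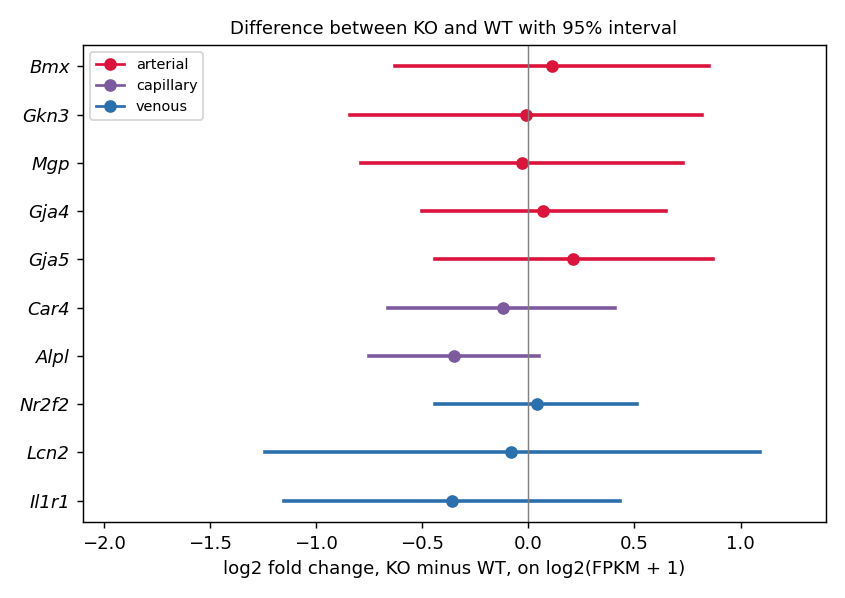
Log2 fold change between KO and WT mice for each segment marker on log2(FPKM + 1), with the 95% interval from limma (n = 3 mice per group). All 10 intervals cross 0, and the interval of *Alpl* (−0.75 to 0.05) crosses it least.

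*Car4*, the carbonic anhydrase anchored to the outer face of capillary endothelium, where it speeds the exchange of carbon dioxide (chromosome 11, 84957786 to 84966044, plus strand), had 74.8, 54.6 and 51.3 FPKM in the WT libraries and 69.4, 54.2 and 42.9 FPKM in the KO libraries. Replicate 1 was the highest library of each group, and the groups overlapped. The means were 60.3 ± 12.7 and 55.5 ± 13.3 FPKM (SD, n = 3 each), with a log2 fold change of −0.12 (SE 0.24, 95% interval −0.66 to 0.41; limma p = 0.616, exact permutation p = 0.6). This difference turned to 0.04 without WT 1 and without KO 3, and to 0.03 relative to the pan-endothelial genes. Together the mean log2(FPKM + 1) of *Car4* and *Alpl* was 6.01, 5.70 and 5.71 in WT mice and 5.75, 5.52 and 5.44 in KO mice, so that KO 1 lay among the WT mice.

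Of 12 further capillary genes, mostly transporters of the blood-brain barrier, 0 were higher and 1 was lower at an unadjusted p under 0.05 (2.77% and 3.11% of all genes tested), and their median log2 fold change was −0.04. The lower one was *Spock2*, a matrix proteoglycan that neurons also make, with 271, 329 and 356 FPKM in the WT libraries and 192, 244 and 220 FPKM in the KO libraries (log2 fold change −0.54, SE 0.22; limma p = 0.0365, adjusted p = 0.841; exact permutation p = 0.1). Its groups did not overlap. The summed FPKM of the neuronal markers was 243, 398 and 517 in WT mice and 243, 436 and 192 in KO mice, and its part in the *Spock2* values was not tested.

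The other carbonic anhydrases were set beside *Car4*. Of 16 listed, 12 were tested, *Car4* included, with 6 positive and 6 negative log2 fold changes, and 1 was higher and 0 were lower at an unadjusted p under 0.05, where 2.77% and 3.11% of all genes were. The higher one was *Car10*, a relative without enzyme activity, with 8.67, 12.7 and 16.4 FPKM in the WT libraries and 24.6, 13.5 and 40.8 FPKM in the KO libraries (log2 fold change 0.92, SE 0.37; limma p = 0.0321, adjusted p = 0.841; exact permutation p = 0.2), and its groups overlapped through KO 2. The membrane enzyme *Car12* had 21.3, 19.6 and 27.5 FPKM in the WT libraries and 42.2, 20.3 and 90.4 FPKM in the KO libraries. *Car14*, another membrane enzyme, had 49.5, 38 and 47 FPKM in the WT libraries and 97.2, 41.6 and 96.7 FPKM in the KO libraries. In these 3 genes KO 1 and KO 3 stood above the rest, as did the choroid plexus sums in those libraries, whose part was not tested. *Car11*, another relative without enzyme activity, was highest in KO 2 and WT 3, with 19, 29.5 and 35.3 FPKM in the WT libraries and 20.2, 36.7 and 17.9 FPKM in the KO libraries. *Car4* had its lowest value in KO 3.

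The venous genes completed the comparison at the downstream end. *Nr2f2*, the nuclear receptor that sets venous identity and that pericytes and fibroblasts also express (chromosome 7, 70351944 to 70366735, minus strand), had 28.5, 30 and 24.6 FPKM in the WT libraries and 32.7, 31.3 and 22.1 FPKM in the KO libraries. KO 1 and KO 2 were above every WT mouse and KO 3 was below every WT mouse. The means were 27.7 ± 2.82 and 28.7 ± 5.76 FPKM (SD, n = 3 each; log2 fold change 0.04, SE 0.21, 95% interval −0.44 to 0.51; limma p = 0.871, exact permutation p = 0.9). Without KO 3 the groups of *Nr2f2* did not overlap, with a log2 fold change of 0.21 (limma adjusted p = 0.847), and without KO 1 the value was −0.07. With a mouse left out groups separate more easily, and the share over all genes was not taken for that fit. The relatives of *Nr2f2*, *Nr2f1* and *Nr2f6*, had log2 fold changes of −0.04 and −0.08 (limma p = 0.846 and 0.778; exact permutation p = 0.9 and 1).

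*Il1r1*, the signaling receptor for interleukin 1, which makes venous endothelium responsive to that cytokine (chromosome 1, 40225080 to 40317257, plus strand), had 15.3, 7.09 and 4.8 FPKM in the WT libraries and 7.23, 5.11 and 6.2 FPKM in the KO libraries. WT 1 stood above all other libraries, and the other 5 lay between 4.8 and 7.23 FPKM. Its means were 9.05 ± 5.5 and 6.18 ± 1.06 FPKM (SD, n = 3 each; log2 fold change −0.36, SE 0.36, 95% interval −1.15 to 0.43; limma p = 0.337, exact permutation p = 0.7). Without WT 1 the difference was 0.06.

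*Lcn2* encodes lipocalin 2, an iron-withholding secreted protein that is induced in inflammation and is also stored in neutrophil granules (chromosome 2, 32384633 to 32388252, minus strand). It was the least abundant of the 10 genes, with 6.24, 0.48 and 1.62 FPKM in the WT libraries and 1.45, 2.18 and 2.06 FPKM in the KO libraries. The WT mice held both the highest and the lowest value, and the 3 KO mice lay between them. From the estimated depth, these values stand for about 65.4, 3.89 and 17 fragments in WT mice and 10.6, 12.8 and 22.3 fragments in KO mice, so the WT 2 value is near the limit of 3 fragments. The means were 2.78 ± 3.05 and 1.89 ± 0.389 FPKM (SD, n = 3 each; log2 fold change −0.08, SE 0.52, 95% interval −1.24 to 1.09; limma p = 0.883, exact permutation p = 0.9). Leaving out WT 1 moved the difference to 0.55, and leaving out WT 2 moved it to −0.60.

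*Lcn2* and *Il1r1* both had their highest value in WT 1, 1.29 and 1.01 above their own means on the log2(FPKM + 1) scale. *Nr2f2* in that library was 0.03 above its mean. WT 1 also had the highest summed FPKM of the fibroblast markers (3510, beside 1749 to 3160 in the other libraries), of the pericyte markers (1337, beside 823 to 1143), of the astrocyte markers (620, beside 381 to 509), of the microglia and macrophage markers (263, beside 172 to 225), of the oligodendrocyte markers (621, beside 271 to 508) and of the erythroid markers (2425, beside 1209 to 2341). The part of these cells in the *Lcn2* and *Il1r1* values was not tested. The sum of 8 neutrophil markers was 7.8, 28.7 and 18.8 FPKM in the WT libraries and 24.5, 6.83 and 5.96 FPKM in the KO libraries, and its part in the *Lcn2* values was not tested.

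Of 16 further venous genes 14 were tested, 0 were higher and 1 was lower at an unadjusted p under 0.05, beside 2.77% and 3.11% over all genes, and the median log2 fold change was −0.07. The lower one was *Ephb4*, the receptor on venous endothelium for the arterial ligand ephrin-B2, with 33.4, 32.9 and 29 FPKM in the WT libraries and 23.7, 16.4 and 25.5 FPKM in the KO libraries. Its log2 fold change was −0.54 (SE 0.22; limma p = 0.0317, adjusted p = 0.841; exact permutation p = 0.1), and its groups did not overlap. In the same list 1 gene was wholly higher and 2 were wholly lower in KO mice, beside 5.37% and 5.7% of all genes tested. Beside *Ephb4* these were *Emcn*, the sialoprotein endomucin, which was higher, and *Lrg1*, a secreted glycoprotein induced in inflammation, which was lower, both named after their values were seen.

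The receptor of interleukin 1 acts with a co-receptor and is held back by other members of its family. *Il1rap*, the co-receptor of *Il1r1*, had 4.47, 4.75 and 3.16 FPKM in the WT libraries and 5.18, 4.3 and 7.91 FPKM in the KO libraries. *Sigirr*, a member of the family that dampens its signal, had 5.68, 5.58 and 5.2 FPKM in the WT libraries and 5.12, 2.71 and 4.54 FPKM in the KO libraries, without overlap (log2 fold change −0.37, SE 0.27; limma p = 0.197, exact permutation p = 0.1). Of 25 genes of the interleukin 1 response 17 were tested, and 4, *Il1b*, *Il6*, *Sele* and *Saa3*, were listed at 0 in every library. At an unadjusted p under 0.05, 1 gene was higher and 1 was lower in KO mice, both with overlap between the groups, near the 2.77% and 3.11% of all genes, and the median log2 fold change was −0.24. The higher one was *Nfkbia*, the inhibitor of NF-kB that NF-kB itself induces (log2 fold change 0.52, SE 0.23; limma p = 0.0457, adjusted p = 0.841; exact permutation p = 0.2), and the lower one, named once its value was known, was *Socs3*, an inhibitor of cytokine signaling (−0.73, SE 0.32; limma p = 0.046, adjusted p = 0.841; exact permutation p = 0.2). *Vcam1*, an adhesion molecule of inflamed endothelium, had 35.5, 25.7 and 24.3 FPKM in the WT libraries and 40.4, 30.2 and 45 FPKM in the KO libraries. Among the 17 tested genes of this list, 5 log2 fold changes were positive and 12 negative. Wholly higher in KO mice were 0 and wholly lower 2, beside 5.37% and 5.7% of all genes tested.

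A list of 25 genes that set arterial and venous identity was compared beside the markers. At an unadjusted p under 0.05, 1 gene was higher and 4 were lower in KO mice, beside 2.77% higher and 3.11% lower over all genes tested. The median log2 fold change was −0.17, with 8 positive and 17 negative values. The lower ones were *Foxc2*, a forkhead factor upstream of arterial genes that meningeal fibroblasts also express (log2 fold change −0.84, SE 0.19; limma p = 0.00141), *Smad4*, the shared mediator of BMP and TGF-beta signals (−0.52, SE 0.18; limma p = 0.0179), *Ephb4*, and *Notch1*, named after its value was seen (−0.50, SE 0.21; limma p = 0.0378), each with an exact permutation p of 0.1. *Foxc2* had 31.9, 27.4 and 24.3 FPKM in the WT libraries and 14.6, 15.2 and 15.3 FPKM in the KO libraries. The log2 fold changes of 8 fibroblast markers were all negative, with a median of −0.36, and their summed FPKM was 3510, 3160 and 2279 in WT mice and 2397, 1749 and 2314 in KO mice. Their part in the *Foxc2* values was not tested. The higher one was *Vegfa*, the growth factor at the head of arterial specification, with 24.4, 19 and 17.9 FPKM in the WT libraries and 28.9, 30.3 and 25.6 FPKM in the KO libraries (0.46, SE 0.20; limma p = 0.0458, exact permutation p = 0.1). None of these 5 passed adjustment, and in each of them the groups did not overlap. In the whole list 2 genes were wholly higher and 4 wholly lower in KO mice, beside 5.37% and 5.7% of all genes tested. The arterial and venous markers themselves had median log2 fold changes of 0.07 and −0.08.

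FPKM is scaled by transcript length, so the levels of the 10 genes can be set in order. In WT mice *Mgp* was highest with a mean of 389 FPKM, above 99.0% of the genes tested, and its lowest mouse lay above the highest mouse of the next gene. *Car4*, *Gja4*, *Alpl*, *Gkn3* and *Nr2f2* followed with means from 60.3 down to 27.7 FPKM, and each overlapped its neighbour in the order. *Nr2f2* was separated from *Gja5*, and *Gja5*, *Bmx*, *Il1r1* and *Lcn2* again overlapped from neighbour to neighbour, down to 2.78 FPKM, above 16.5% of the genes tested. In KO mice the order was *Mgp*, *Gja4*, *Car4*, *Gkn3*, *Alpl*, *Nr2f2*, *Gja5*, *Bmx*, *Il1r1* and *Lcn2*. *Alpl* thus moved from the fourth to the fifth place, but in neither group was it separated from *Gkn3*. In KO mice *Alpl* was separated from *Nr2f2*, which it was also in WT mice by value (47.8 FPKM at least, against 30 FPKM at most), and *Bmx*, *Il1r1* and *Lcn2* were separated from each other.

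Genes whose profile over the 6 libraries was nearest to the mean profile of each segment were sought among 14237 tested genes other than the 10 markers, by the root mean square distance of centered log2(FPKM + 1). Nearest to the arterial genes were *Ackr3*, an atypical receptor for the chemokine CXCL12 (distance 0.047, mean 26.1 FPKM), and *Akr1b10* (0.054, mean 9.49 FPKM). The capillary pair was nearest to *Ercc6l2* and *Fbxo32* (0.045 each). For the venous genes the nearest were *Clic5* (0.098) and *Pde1a* (0.104). These distances describe likeness over 6 libraries.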

How the data were processed

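Brain microvessel RNA of 6 mice, 3 WT and 3 TEKCRIF1 KO, was sequenced as paired ends from a directional library kit. The authors trimmed the reads, mapped them with TopHat and deposited FPKM values, 1 per gene symbol and library, and the submitters' processing notes name the build mm10, which is GRCm38. No normalization between libraries and no read counts were stated for these files, and no scaling was added. Groups and replicate numbers were taken from the genotype labels and titles. The labels inside the files of the WT mice and of KO 3 carry other numbers than the titles. Nothing states shared litters or days.

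The genotypes were compared on log2(FPKM + 1) using limma 3.58.1 (trended variance) in R 4.3.3, for the 14247 genes whose mean reached 1 FPKM, with Benjamini-Hochberg adjustment over these genes. This fold change understates changes of low genes. Single genes were also tested by exact two-sided permutation. p-values measure the spread between these 6 libraries. Depth was estimated from the steps between FPKM values under 0.3, and fragments from annotated transcript lengths. GC content and length came from GENCODE M21 for 13732 tested genes, with loess trends (span 0.3) removed per library. Promoter windows came from RefSeq, and Python 3.11.15 with pandas 2.3.3 was used.

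The 10 genes and the 22 companion lists were chosen with earlier results of these data known. All 10 genes were named. From lists of at most 8 genes and the carbonic anhydrases any gene could be named, and from longer lists up to 3 per direction whose groups did not overlap and whose unadjusted p was under 0.05, or otherwise the 2 of highest mean FPKM. The 19 alternatives covered scaling, filter, pseudocount, variance, GC content, length, block and single libraries.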

Additional observations from a re-analysis of the deposited data

How the results depend on the processing

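The *Alpl* difference stayed negative under all 19 alternatives (−0.40 to −0.20; limma p from 0.0326 to 0.336, adjusted p at least 0.461). The reference without *Cdh5* was added after the data were seen. Without a filter on low values, 1 marker, *Alpl*, had an unadjusted p under 0.05, and relative to the pan-endothelial genes, with or without *Cdh5*, 0 markers lacked overlap. Relative to these genes the median of all genes shifted to 0.15, and *Gkn3* (0.14), *Mgp* (0.12), *Car4* (0.03) and *Lcn2* (0.08) changed sign; without *Cdh5* so did *Gkn3* (0.06) and *Mgp* (0.04). Under GC correction, alone or with the replicate block, *Bmx* (−0.01), *Gkn3* (0.02), *Nr2f2* (−0.04) and *Lcn2* (0.02) changed sign, and a pseudocount of 0.1 gave 0.09 for *Lcn2*. The causes were not tested.

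When 1 library at a time was left out, the genes passing adjustment numbered 0 to 6 (2 without WT 3, 6 without KO 2 and 4 without KO 3), and those at an unadjusted p under 0.05 numbered 451 (without WT 2) to 1865 (without KO 2), with 528 without KO 1. Of the 10 markers 0 had an unadjusted p under 0.05 in these fits, and 1 to 3 lacked overlap (3 without KO 2, 2 without KO 3). Groups of 2 and 3 mice separate more easily than groups of 3. The share of all genes without overlap was not taken for these fits, so the counts have no background. The segment medians ranged from −0.15 to 0.35 (arterial), −0.33 to −0.14 (capillary) and −0.45 to 0.06 (venous). Single genes ranged from −0.21 to 0.37 for *Bmx*, −0.42 to 0.28 for *Gkn3*, −0.28 to 0.26 for *Mgp*, −0.08 to 0.35 for *Gja4*, −0.07 to 0.43 for *Gja5*, −0.30 to 0.04 for *Car4*, −0.07 to 0.21 for *Nr2f2*, −0.60 to 0.55 for *Lcn2* and −0.69 to 0.06 for *Il1r1*. With 3 mice against 3 the smallest exact permutation p is 0.1, so no exact test could reach 0.05, nor could one with a group of 2 mice.

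Same-numbered WT and KO libraries had correlations of 0.04, 0.03 and 0 between their deviations, beside −0.07 to 0.05 for the other pairs. These values cannot tell whether mice of the same number shared a litter or day. With the replicate block 871 genes had an unadjusted p under 0.05 and 0 passed adjustment. The lowest limma adjusted p was 0.0507 with the block, beside 0.841 without it. The log2 fold change of *Alpl* was −0.35 with the block (limma adjusted p = 0.866). With a minimum mean of 5 FPKM *Lcn2* was not tested. At these depths only *Lcn2* was limited by counting, with about 3.89 fragments in WT 2, while the other markers had at least 132 estimated fragments in each library.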
